A study of Mus musculus with 4 samples.

Results

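The collagens described here are the chains of types VI, VIII, XII, XIV, XV, XVI, XVIII and XXII, which assemble on, around or between the main fibrils of tendon and do not form the fibrils themselves. They comprise 10 genes, of 22180 genes covered by the 23521 probe sets that the platform annotation gives exactly 1 symbol. The genes were chosen by name, and each was represented by its probe set with the highest mean over all arrays; Col6a1 was the only one with more than 1 such probe set. The values came from 4 arrays of plantarflexor tendon (Achilles and plantaris, combined for each animal) of untreated wild-type C57Bl/6 mice, an inbred laboratory strain, aged 4 months: 2 arrays from males and 2 from females. The samples are labelled as tenocytes, but RNA was taken from whole tendon homogenate, amplified from 12.5 ng and hybridised to a Mouse Gene ST 2.1 strip. Whether each array stands for another animal is not labelled, and the p-values therefore reflect the spread of these 4 samples alone, which may be technical.

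Type VI collagen is built from alpha 1, alpha 2 and alpha 3 chains and forms beaded microfilaments in the matrix next to the cell surface. Type VIII is a short network-forming collagen known from Descemet's membrane and from vessel walls. Types XII, XIV, XVI and XXII belong to the fibril-associated collagens with interrupted triple helices: XII and XIV lie on the surface of type I fibrils in tendon, and XXII is deposited at tissue junctions, among them the junction of muscle and tendon. Types XV and XVIII are proteoglycan collagens of basement membrane zones, and XVIII is the source of endostatin.

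The start regions of the type VI chains are shown because Col6a1 and Col6a2 had the same order of arrays and Col6a3 completes the trimer, and that of Col8a1 because it varied most. RefSeq (GRCm38.p6) held a promoter window for 7 of the 10 genes. Each window runs 5′ to 3′ from 250 bases before to 50 bases after an annotated start. Capitals mark matches, on either strand, to the GC box, spelled GGGCGG, the TATA motif, spelled TATAAA, the CCAAT motif, or the AP-1 motif, spelled TGANTCA. No match of one motif overlapped a match of another.
Col6a1 (chr10:76725995-76726294, minus strand): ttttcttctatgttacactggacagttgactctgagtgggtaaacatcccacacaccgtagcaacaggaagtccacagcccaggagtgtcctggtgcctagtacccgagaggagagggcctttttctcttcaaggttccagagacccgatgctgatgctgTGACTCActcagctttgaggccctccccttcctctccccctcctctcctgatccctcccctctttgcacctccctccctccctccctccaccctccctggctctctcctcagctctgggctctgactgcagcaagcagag
Col6a2 (chr10:76623581-76623880, minus strand): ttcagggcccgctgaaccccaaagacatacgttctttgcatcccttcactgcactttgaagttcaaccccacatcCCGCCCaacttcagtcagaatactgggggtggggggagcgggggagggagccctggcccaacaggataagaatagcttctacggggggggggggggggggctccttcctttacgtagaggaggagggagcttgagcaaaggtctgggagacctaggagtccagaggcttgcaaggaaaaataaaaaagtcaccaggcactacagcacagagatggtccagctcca
Col6a3 (chr1:90843922-90844221, minus strand): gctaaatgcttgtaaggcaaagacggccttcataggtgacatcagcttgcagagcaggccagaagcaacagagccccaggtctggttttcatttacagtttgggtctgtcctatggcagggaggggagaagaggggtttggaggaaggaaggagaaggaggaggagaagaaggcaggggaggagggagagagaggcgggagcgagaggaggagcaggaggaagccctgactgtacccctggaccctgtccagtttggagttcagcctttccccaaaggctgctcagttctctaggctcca
Col8a1 (chr16:57754688-57754987, minus strand): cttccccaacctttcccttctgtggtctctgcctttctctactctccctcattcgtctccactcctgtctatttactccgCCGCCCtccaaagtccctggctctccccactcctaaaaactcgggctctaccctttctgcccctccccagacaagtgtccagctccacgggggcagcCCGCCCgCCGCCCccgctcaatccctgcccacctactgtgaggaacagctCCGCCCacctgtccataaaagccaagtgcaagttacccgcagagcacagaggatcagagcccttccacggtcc
No match to the TATA motif or the CCAAT motif was present in these windows, against 13.6% and 37.4% of all 32851 windows of this length that held one. The Col8a1 window held 4 GC boxes and the Col6a2 window 1, a motif present in 35.7% of all windows. The Col6a1 window held 1 AP-1 match, at position -90 from the start, a motif present in 7.81% of all windows. GC content was 57.3%, 56.7% and 56.3% for Col6a1, Col6a2 and Col6a3 and 60.3% for Col8a1, beside a median of 52.7% over all windows. In this assembly Col6a2 and Col6a1 are neighbours on chromosome 10 with 0 protein-coding genes between them, and Col18a1 lies on the same chromosome beyond 2 protein-coding genes, Pcbp3 and Slc19a1. These matches are letters in a window and were not measured for binding.

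The values are log2 RMA values, a background-corrected and quantile-normalised array summary, and they cannot rank one gene against another because probe sets differ in their response. To judge which chains gave signal, each value was set against the 95th percentile of 1108 olfactory receptor probe sets, genes used mainly by sensory neurons of the nose, on the same array. That percentile lay between 2.71 and 2.90. The 3 type VI chains, Col8a1 and Col22a1 were above it on all 4 arrays. Col12a1, Col14a1 and Col15a1 were above it on 3 arrays each, and Col16a1 and Col18a1 on 0. Of all probe sets tested, 37.5% had a mean above the highest of these percentiles.

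**Figure D1:**
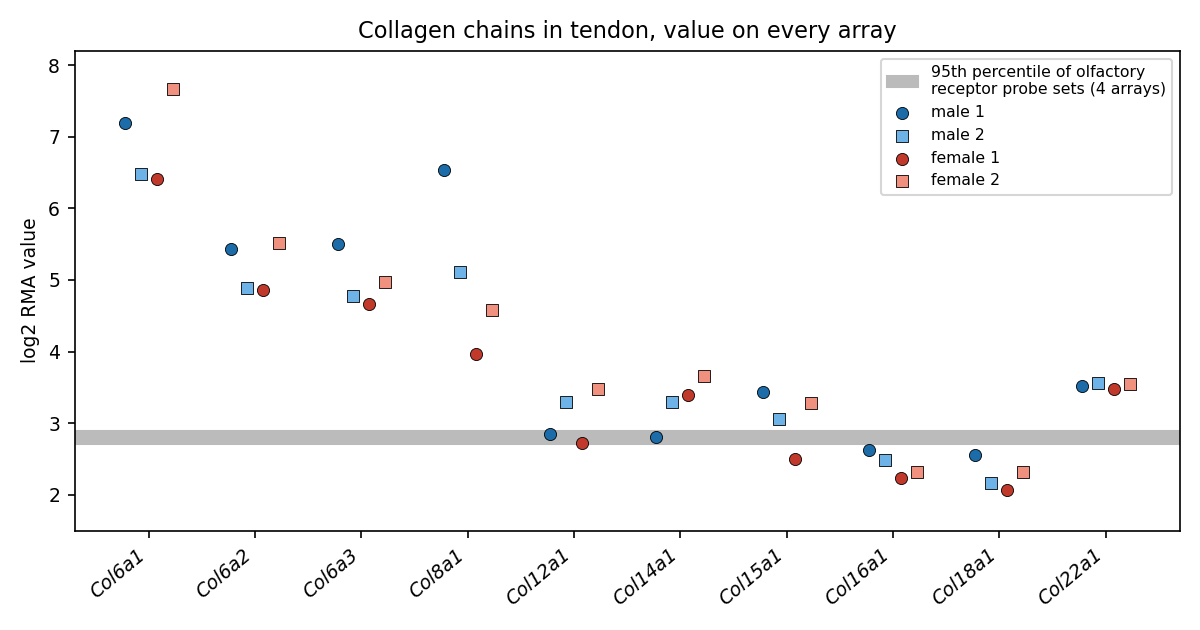
Log2 RMA value of each collagen gene (x axis) on every array; circles and squares are the first and second array of a sex, blue for males and red for females, and the grey band spans the 95th percentiles of olfactory receptor probe sets on the 4 arrays. The type VI chains and Col8a1 lie above the band on every array, Col22a1 shows almost no spread, and Col16a1 and Col18a1 lie below the band.

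As a check of the labels and the tissue, Xist, the RNA that silences an X chromosome, was at 2.47 and 1.98 in males and at 7.34 and 8.04 in females, and the Y-linked Eif2s3y was at 4.46 and 4.96 in males and at 2.86 and 1.65 in females. On female 1 this Y-linked gene was above the olfactory receptor percentile of that array, 2.71. A value just above the percentile therefore need not mean expression. Of 8 tenocyte markers 7 were above the olfactory receptor percentile on all arrays, Mkx being below it on 1. Their summed unlogged level ran from 1105.9 to 1392.5 in males and from 905.8 to 1915.4 in females. All 10 skeletal muscle markers were also above it, with a summed level from 10705.3 to 11312.7 in males and from 7353.2 to 10929.5 in females, so the arrays held muscle RNA as well. In such bulk samples, fewer cells of a type and less RNA per cell cannot be told apart.

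The most regular pattern over the chains was a low array and not a difference between the sexes. Of the 10 genes, 9 had their lowest value on female 1, against 25.1% of all probe sets tested and 18.7% of those with a mean above the olfactory receptor level. The exception was Col14a1, which was lowest on male 1. Col16a1 and Col18a1, below the olfactory receptor percentile on every array, are among the 9. The margin was small for some: on female 1 and male 2, Col6a2 was at 4.86 and 4.89 and Col6a1 at 6.41 and 6.48. For Col22a1 it was 3.47 against 3.52 on male 1. It was wider for Col15a1, at 2.50 against 3.06 on male 2, and for Col8a1, at 3.97 against 4.58 on female 2. The highest value was on male 1 for 5 genes, on female 2 for 4 and on male 2 for Col22a1, where female 2 is the highest array for 24.8% and male 1 for 28.1% of all probe sets. The median deviation of the 10 genes from their own means was 0.25 on male 1, 0.01 on male 2, -0.31 on female 1 and 0.13 on female 2. The fibril-forming collagens were low on the same array, with 9 of 11 chains lowest on female 1 and a median deviation of -0.25 there. By contrast, 2 of 10 further measured chains of the network, beaded and fibril-associated classes were lowest on female 1, and only Col9a2 of these was above the olfactory receptor percentile on all arrays. Tenocyte markers, which include the fibril-forming Col1a1 and Col1a2, had a median deviation of -0.36 on female 1, and skeletal muscle markers of 0.23. The part of these marker lists in this pattern was not tested.

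**Figure D2:**
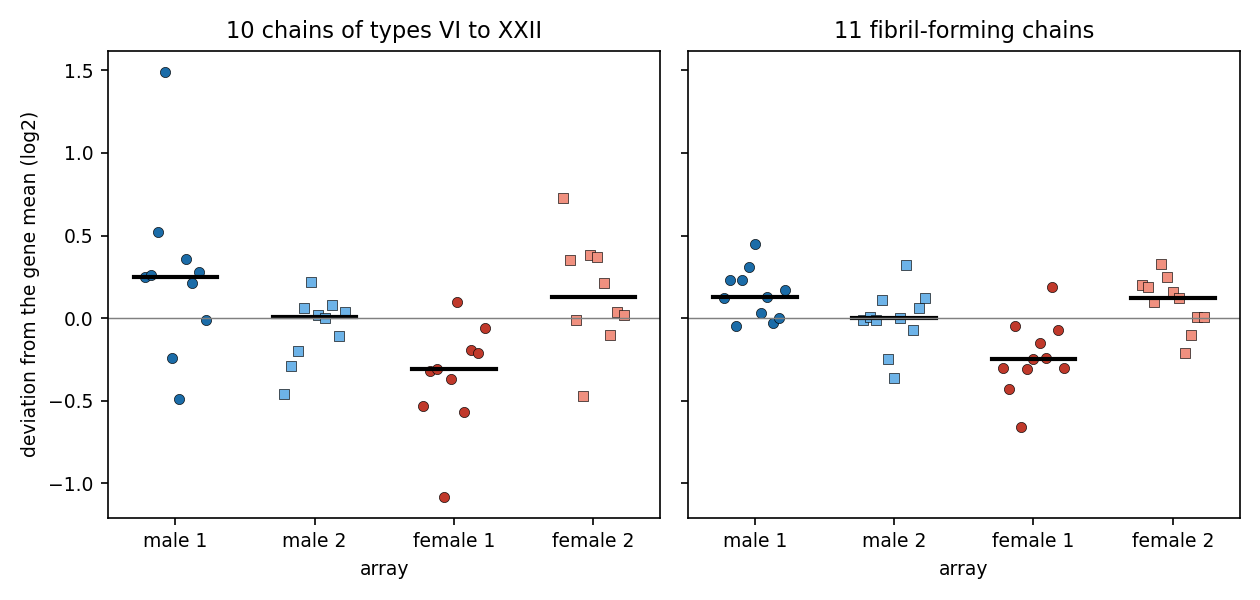
Deviation of each chain from its own mean over 4 arrays (y axis, log2) by array (x axis), for the 10 chains described here at left and the 11 fibril-forming chains at right; each point is a gene and black bars are medians. Both panels have their lowest median on female 1, at -0.31 and -0.25.

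The genes that encode type VI collagen did not separate the sexes: Col6a1 and Col6a2 were high on male 1 and female 2, and Col6a3 on male 1 alone. Col6a1 (probe set 17547505), the alpha 1 chain, was at 7.19 on male 1, 6.48 on male 2, 6.41 on female 1 and 7.67 on female 2. Col6a2 (probe set 17242150), the alpha 2 chain, was at 5.43, 4.89, 4.86 and 5.52 in the same order. Both genes had the same order of arrays, female 2 above male 1, then male 2, then female 1, so the sexes overlapped. Col6a3 (probe set 17225413), whose large alpha 3 chain completes the trimer, was at 5.50 on male 1, 4.78 on male 2, 4.67 on female 1 and 4.97 on female 2. It was again lowest on female 1, but highest on male 1.

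Means ± SD were 6.83 ± 0.50 in males and 7.04 ± 0.89 in females (n = 2 each) for Col6a1, and 5.16 ± 0.38 and 5.19 ± 0.47 for Col6a2. For Col6a3 they were 5.14 ± 0.51 and 4.82 ± 0.21. The female minus male differences were 0.21 (95% interval -1.15 to 1.56), 0.03 (-0.83 to 0.89) and -0.32 (-1.11 to 0.48). Each difference was smaller than the SD of at least 1 sex, and each interval spans 0. A second Col6a1 probe set (17242177) was at 5.80, 5.31, 4.65 and 5.92 on male 1, male 2, female 1 and female 2. It kept the order of the arrays, but its difference was -0.27 (SE 0.48), so the sign for Col6a1 depended on the probe set.

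The type VI chains also shifted against one another on female 2. Within an array, Col6a3 minus Col6a1 was -1.68 and -1.70 in males and -1.74 on female 1, but -2.70 on female 2, a shift of 1.02 between the extreme arrays. The absolute size of such a difference has no meaning between probe sets, and only its movement over arrays is read. The groups did not overlap, and the difference of the means was -0.53 (exact two-sided permutation p = 0.33, adjusted p = 0.667 over the 4 pairs compared), where 0.33 is the smallest p that 2 against 2 arrays allow. It was -0.05 without female 2, and also -0.05 with the other Col6a1 probe set. Col6a2 minus Col6a1 was -1.75, -1.59, -1.56 and -2.15 on male 1, male 2, female 1 and female 2, with overlapping groups (exact permutation p = 1.0).

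On female 2, where Col6a1 and Col6a2 were highest, macrophage markers had a median deviation of 0.93 and sheath fibroblast markers of 0.86. On male 1, where both chains were also high, these medians were -0.49 and -0.06. Other lists moved on female 2 as well. Adipocyte and Schwann cell markers were high there, at 0.73 and 0.50, and skeletal muscle markers low, at -0.20. On male 1 these 3 lists were at -1.11, -0.12 and 0.14. Of the 10 macrophage markers 6 were above the olfactory receptor percentile on all arrays, with a summed level of 375.4 to 450.6 in males and 395.6 to 846.4 in females. Of 5 measured sheath fibroblast markers 3 were above it, with a summed level of 214.1 to 226.8 in males and 207.9 to 316.6 in females. The part of these marker lists in the type VI values was not tested.

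**Figure D3:**
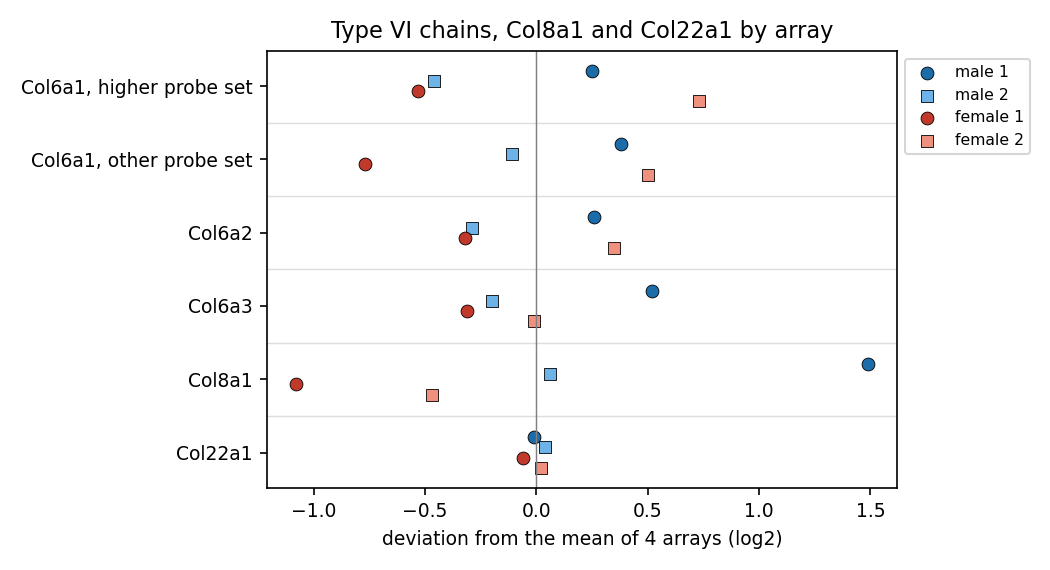
Deviation from the mean of 4 arrays (x axis, log2) for both Col6a1 probe sets, Col6a2, Col6a3, Col8a1 and Col22a1 (rows); colours and marks give the array. Female 1 is leftmost in every row, male 1 is far to the right for Col8a1 at 1.49, and the 4 marks of Col22a1 nearly coincide.

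Col8a1, the alpha 1 chain of the network-forming type VIII collagen, had the widest spread of the 10 genes and the largest difference between the sexes. It (probe set 17331162) was at 6.53 on male 1, 5.11 on male 2, 3.97 on female 1 and 4.58 on female 2. Both male arrays lay above both female arrays. The means were 5.82 ± 1.01 in males and 4.28 ± 0.43 in females (SD, n = 2 each). The difference was -1.55 (SE 0.54, 95% interval -2.99 to -0.10), or 2.92-fold lower in females, with an unadjusted p of 0.0409 and a limma adjusted p of 0.969. Without male 1 the difference was -0.83 and without male 2 it was -2.26. Its range over the arrays was 2.56, and 1.5% of the probe sets above the olfactory receptor level had a range at least as wide. Col8a2, the partner chain, was between 2.21 and 2.52 on the 4 arrays and above the olfactory receptor percentile on 0.

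The median deviation of pericyte and smooth muscle markers was -0.06 on male 1, 0.18 on male 2, -0.13 on female 1 and 0.03 on female 2. Of these 8 markers 7 were above the olfactory receptor percentile on all arrays, and their summed level ran from 475.0 to 513.4 in males and from 434.3 to 528.2 in females. Of the 8, 7 had a negative difference, as Col8a1 had, with a median of -0.08. The widest were those of the pericyte marker Higd1b at -0.62 and the receptor gene Pdgfrb at -0.54, and the others ran from -0.23 to 0.17. Higd1b and Pdgfrb were highest on male 2 and lowest on female 2, while Col8a1 was highest on male 1 and lowest on female 1. Tagln alone of this list had its highest and lowest values on the same arrays as Col8a1. It was at 4.87 on male 1, 3.29 on male 2, 3.19 on female 1 and 4.51 on female 2. Endothelial markers were lowest on male 1 for 6 of 7, with a median deviation of -0.37 there, and macrophage markers for 6 of 10, with a median deviation of -0.49. Of the endothelial markers 5 were above the percentile on all arrays, and their summed level ran from 133.0 to 231.8 in males and from 213.5 to 267.0 in females. Adipocyte markers were low on male 1, with a median deviation of -1.11. They were above the percentile on all arrays for 5 of 7, with a summed level of 1171.6 to 1623.9 in males and 1607.5 to 1801.3 in females. The part of these 4 marker lists in the Col8a1 values was not tested. The profile nearest to that of Col8a1 among 18687 named genes, by root mean square distance of gene-centred values over the 4 arrays, was that of Slc16a9 at 0.136, a monocarboxylate transporter family gene. Eola1 followed at 0.186 and Egr1, an immediate early transcription factor gene, at 0.227. Egr1 was at 5.90 and 5.06 in males and at 3.47 and 4.34 in females.

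The fibril-associated genes Col12a1 and Col14a1 gave signal close to the olfactory receptor level. Col12a1, which encodes the type XII chain on the fibril surface, was at 2.85 on male 1, 3.30 on male 2, 2.72 on female 1 and 3.47 on female 2. Each sex thus had 1 lower and 1 higher array, and the means were 3.08 ± 0.32 and 3.09 ± 0.53 (SD, n = 2 each), a difference of 0.02 (95% interval -0.86 to 0.89). Col14a1, which encodes the related type XIV chain, was at 2.80 on male 1, 3.30 on male 2, 3.39 on female 1 and 3.66 on female 2. Here both female arrays were above both male arrays, and male 1 was below the olfactory receptor percentile of its array. The difference was 0.47 (SE 0.24, 95% interval -0.16 to 1.10), with a limma adjusted p of 0.969.

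Both chains bind type I fibrils, so their balance was also compared within each array. Col14a1 minus Col12a1 was -0.05 and 0.00 in males and 0.67 and 0.19 in females. The difference of the means was 0.45 (exact two-sided permutation p = 0.33, the smallest possible, and adjusted p = 0.667), and 0.21 without female 1. Both genes were below the olfactory receptor percentile on male 1, and Col12a1 was close to it on female 1, so no direction is read from this balance.

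Col22a1, the junctional fibril-associated chain, was at 3.52 on male 1, 3.56 on male 2, 3.47 on female 1 and 3.55 on female 2. Its range of 0.10 was the narrowest of the 10 genes, and 99.5% of the probe sets above the olfactory receptor level had a range at least as wide. The difference between the sexes was -0.03 (95% interval -0.42 to 0.35). Other genes known from the junction of muscle and tendon varied more: Lama2, a laminin chain of the muscle basement membrane, was at 4.26 on male 1, 5.75 on male 2, 6.10 on female 1 and 5.0 on female 2. Of 8 such genes 3 were higher and 5 lower in females, with a median of -0.02. Limma called 0 of them, and 2 had an unadjusted p under 0.05, against 4.49% of all probe sets. These 2 differed in opposite directions. Pxn, which encodes the focal adhesion protein paxillin, was at 4.78 and 4.81 in males and at 4.33 and 4.0 in females, a difference of -0.63 (SE 0.18, limma adjusted p = 0.969). Vcl was at 4.47 and 4.60 in males and at 5.11 and 4.89 in females, a difference of 0.46 (SE 0.16, limma adjusted p = 0.969).

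Of the remaining chains, only Col15a1 gave signal above the olfactory receptor level, on 3 of 4 arrays. Col15a1, of the basement membrane zone, was at 3.43 on male 1, 3.06 on male 2, 2.50 on female 1 and 3.28 on female 2. The low array was female 1 alone, the groups overlapped, and the difference was -0.36 (SE 0.32, 95% interval -1.22 to 0.51). Col18a1, its relative, ran from 2.06 to 2.56, and Col16a1, a fibril-associated chain, from 2.23 to 2.62, all below the percentile of their arrays. The female arrays were below the male arrays for Col16a1, with a fitted difference of -0.29 (SE 0.15), and no direction is read at this level. Col15a1 minus Col18a1 was 0.87, 0.89, 0.43 and 0.96 on male 1, male 2, female 1 and female 2 (exact permutation p = 1.0), and nothing is read from it because Col18a1 was below the percentile on every array.

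The nearest profiles to Col6a1 by the same distance were those of Ptprg (0.042), a receptor tyrosine phosphatase gene, Tmem43 (0.046) and Nckap1l (0.075), a gene of blood cell actin regulation. Those nearest to Col15a1 were Anxa3 (0.048), an annexin gene, Adk (0.051), the adenosine kinase gene, and Tceanc2 (0.052). With 4 arrays, such likeness is a description of a short profile.

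Over the 10 genes, 6 were lower and 4 higher in females, with a median difference of -0.102, against 51.2% lower and a median of -0.0062 over all probe sets tested. Col16a1 and Col18a1, below the olfactory receptor percentile on all arrays, were among the 6. Over the 8 genes with a mean above the olfactory receptor level, 4 were lower and 4 higher, with a median of -0.008, so no direction is read from the 10. Limma with Benjamini-Hochberg adjustment over all 23521 probe sets called 0 of the 10 genes, and 0% of all probe sets. The adjusted p of the 10 ran from 0.969 to 0.999. In the same fit Xist, with a difference of 5.47, had an adjusted p of 0.772, and Eif2s3y, at -2.45, had 0.969. The fit thus missed known sex differences, and the absence of calls does not show that the collagens were equal between the sexes. At an unadjusted p under 0.05 there was 1, Col8a1, against 4.49% of all probe sets. The groups did not overlap for 3 of the 10, beside 33.3% of all probe sets, so this share is near the background. Of these, Col8a1 and Col16a1 had the lower values in females, against 17.5% of all probe sets, and Col14a1 the higher, against 15.8%. Col16a1 is in this count by its fitted values alone, since it was below the olfactory receptor percentile on every array. An absolute log2 difference over 1 was seen for 1 gene, Col8a1, and for 1.71% of all probe sets. Without female 1 the median of the 10 was 0.021 and 4 were lower, while without female 2 it was -0.344 and 9 were lower.

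**Figure D4:**
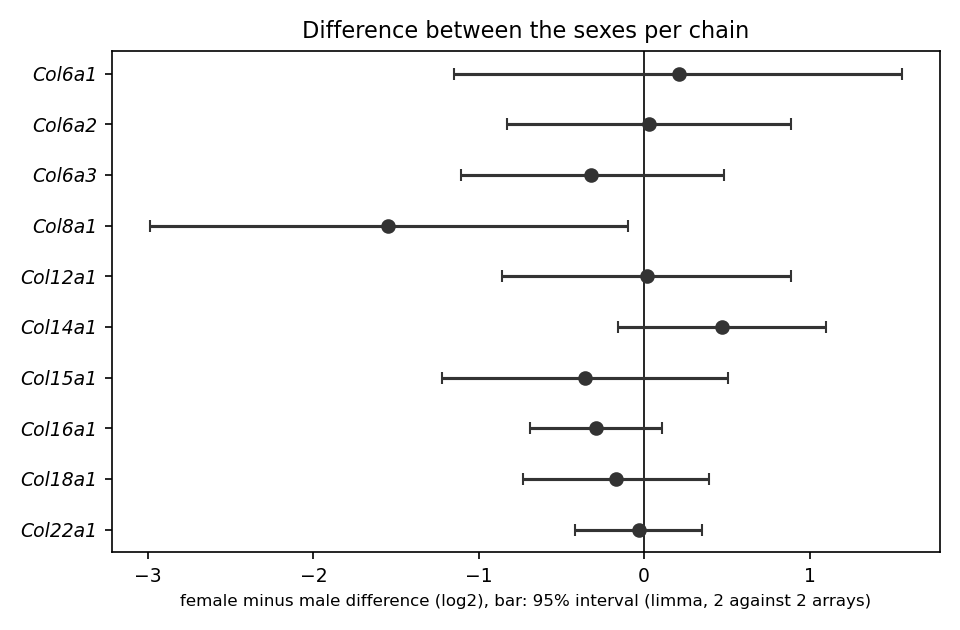
Female minus male difference (x axis, log2) with its 95% interval from limma for each collagen gene (rows), from 2 against 2 arrays. Only the interval of Col8a1, from -2.99 to -0.10, leaves out 0, and it does not pass the adjustment over all probe sets.

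Genes of the molecules that these collagens meet were examined as further lists. Among 11 matrix partners, which include the small proteoglycans decorin and biglycan, 7 were higher and 4 lower in females, with a median of 0.12. Tnxb, which encodes the fibril-binding tenascin X, was at 5.78 and 6.02 in males and at 5.92 and 7.06 in females, a difference of 0.59 (SE 0.42). Lum, the lumican gene, differed by 0.57 (SE 0.52), with its low value of 5.98 on male 2. Of 10 measured collagen receptor genes 6 were higher and 4 lower, with a median of 0.21. Lair1, an inhibitory collagen receptor of leukocytes, was at 3.77, 1.99, 2.81 and 4.10 on male 1, male 2, female 1 and female 2, and Itga2, an integrin chain, differed by 0.50 (SE 0.25). Limma called 0 genes of either list, and 0 had an unadjusted p under 0.05. Itga2 was above the olfactory receptor percentile on 2 arrays and Lair1 on 3.

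Other collagen classes were compared only to place the 10 genes. Of 11 fibril-forming chains 9 had a negative difference and the median was -0.09; among them Col11a1 differed by -0.45 (SE 0.15) at values of 2.12 to 2.68 and Col3a1 by -0.34 (SE 0.36). Of 10 further chains of the same classes 6 were lower with a median of -0.02, and the widest differences were Col10a1 at 0.28 (SE 0.21) and Col9a3 at 0.26 (SE 0.16). Basement membrane and anchoring chains had 4 of 7 lower and a median of -0.02, led by Col4a2 (-0.27) and Col4a3 (-0.20). Transmembrane chains had 3 of 4 lower and a median of -0.09, led by Col13a1 (-0.20) and Col23a1 (-0.13). Limma called 0 genes of these classes, and only Col11a1 had an unadjusted p under 0.05. Above the olfactory receptor percentile on all 4 arrays were 7 of 11 fibril-forming chains and 1 of 10 further chains of the same classes. The same held for 1 of 7 basement membrane and anchoring chains and 2 of 4 transmembrane chains. Col11a1, Col9a3 and Col4a3 were above it on 0 arrays, Col10a1 on 1, and Col4a2 and Col13a1 on 2. No direction is read from these 6 genes.

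**Figure D5:**
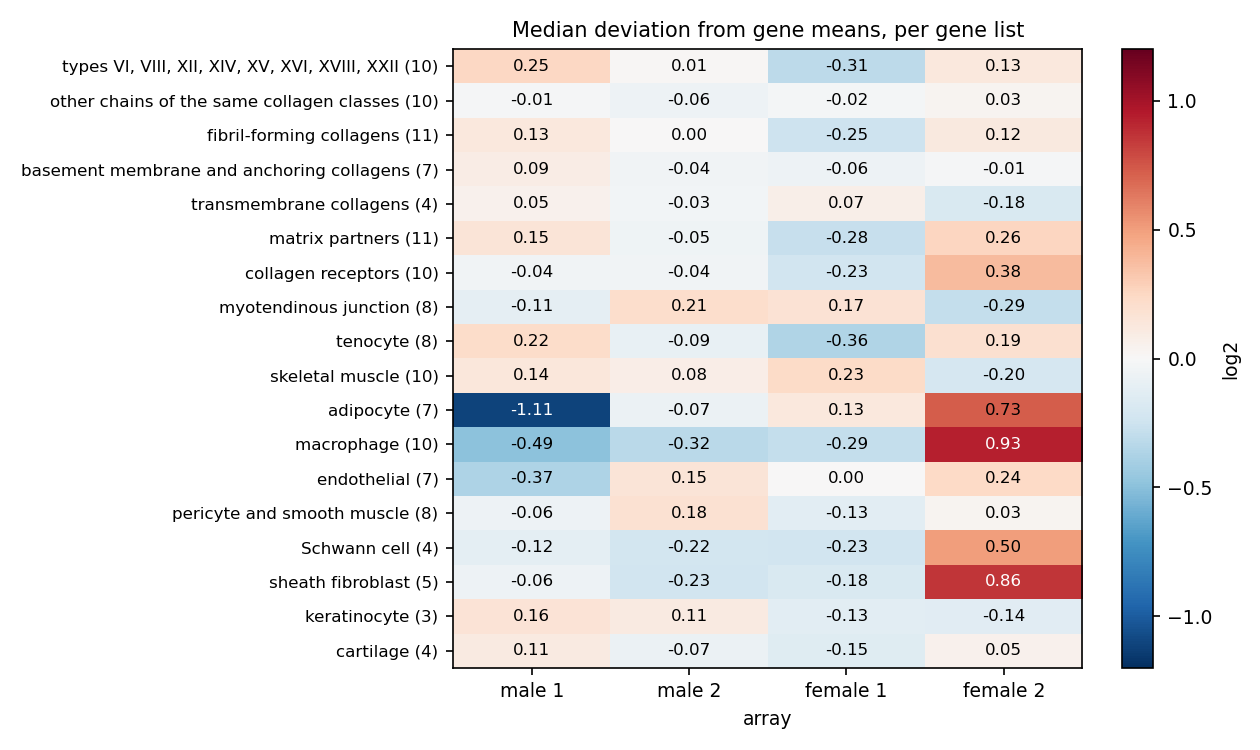
Median deviation of each gene list from its gene means (colour and printed value, log2), with lists in rows (number of measured genes in parentheses) and arrays in columns. The collagens described here, the fibril-forming chains, the matrix partners and the tenocyte markers are lowest on female 1, at -0.25 to -0.36. So are the basement membrane chains, the collagen receptors and the pericyte, Schwann cell and cartilage markers, at -0.06 to -0.23. In these lists 3 of 7, 4 of 10, 2 of 8, 0 of 4 and 2 of 4 genes have their own lowest value on female 1. The Schwann cell median is -0.23 there and -0.22 on male 2. Some lists share genes, and the tenocyte markers include Col1a1, Col1a2, Fmod and Comp. Macrophage and sheath fibroblast markers are highest on female 2 at 0.93 and 0.86.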

How the data were processed

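Tendon RNA of 2 male and 2 female samples was measured on Mouse Gene ST 2.1 arrays. The authors deposited log2 values, with a column for each array. Per the submitters' processing notes they were made with oligo and RMA. Neither versions nor an annotation build is given in the sources used here. Values between 0.517 and 11.933 and the use of RMA set the scale as log2. No further normalization was applied. GEO's platform annotation gave exactly 1 symbol to 23521 of 41345 rows; these were tested, and 1814 rows with several symbols and 16010 with none were not. Of the 23521, 23328 matched the RefSeq gene table of GRCm38.p6 by Entrez ID, with 0 symbols changed.

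Sex was the only term of a linear model fitted with limma 3.58.1 in R 4.3.3 (lmFit, eBayes), with Benjamini-Hochberg adjustment over all probe sets tested and a threshold of 0.05. Within-array differences had an exact permutation test in scipy 1.17.1. The procedure was tested on simulated data. The number of arrays limits the precision, with a median SE of 0.187 for a log2 difference. Named genes were the 10 collagens, the 2 of widest difference in each further list, Xist and Eif2s3y, and the 3 nearest profiles of the 3 collagens with the widest range. Members of a list beyond these were named as examples after their values were seen, and so was the use of olfactory receptor probe sets as a reference level. The genes, lists and tests were chosen with earlier results of these data known. Alternatives covered the rows tested, dim probe sets, the prior, normalization, array weights, the replicate number, probe sets per gene and leaving out each array. Plots were made in Python 3.11.15 with matplotlib 3.10.9.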

Additional observations from a re-analysis of the deposited data

How the results depend on the processing

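Limma called 0 of the 10 collagens under every alternative run, with 0 called among all probe sets tested each time. With the replicate number as a block the count was 0, the smallest adjusted p of the 10 was 0.993 and the unadjusted p of Col8a1 was 0.0693. Same-numbered arrays did not deviate together (correlation of -0.06 over 23521 probe sets). The labels do not say what the numbers stand for, and this correlation cannot show it. The median of the 10 ran from -0.344 without female 2 to 0.021 without female 1. It was -0.008 over the 8 genes that passed either filter on dim probe sets, 1 of which was chosen after seeing the data, and -0.125 with 8 lower after quantile normalization once more.

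Differences that changed sign were small. Col6a1 was at -0.03 with the mean of its probe sets and at -0.27 with its other probe set, an alternative chosen after seeing the data. Col6a2 and Col12a1 were at -0.01 after quantile normalization once more. The difference Col6a2 minus Col6a1 was 0.06 with the mean of the probe sets and 0.30 with the other probe set. Apart from left-out arrays, 93 of 97 recomputed differences of single genes kept their sign. Most of them could not change, since the rows tested, the prior, array weights and the replicate block left the difference itself as it was. Only normalization and the choice of Col6a1 probe set could move a sign, so this count is no measure of stability.

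With each array left out in turn, differences ran from -0.42 to 0.84 for Col6a1, -0.30 to 0.36 for Col6a2, -0.68 to 0.04 for Col6a3 and -2.26 to -0.83 for Col8a1. They ran from -0.36 to 0.39 for Col12a1, 0.22 to 0.72 for Col14a1, -0.75 to 0.03 for Col15a1, -0.35 to -0.22 for Col16a1, -0.36 to 0.02 for Col18a1 and -0.07 to 0.01 for Col22a1. Within arrays they ran from 0.21 to 0.70 for Col14a1 minus Col12a1, -0.48 to 0.12 for Col6a2 minus Col6a1, -1.01 to -0.05 for Col6a3 minus Col6a1 and -0.45 to 0.08 for Col15a1 minus Col18a1. Where 1 array of a sex was left, it was taken to vary as much as the other sex, and the cause of these shifts was not tested.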

Other observations

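Some genes outside the 10 had the same low array, and they were picked after their values were seen. Ddr2, which encodes a receptor tyrosine kinase activated by fibrillar collagen, was at 5.60 on male 1, 4.92 on male 2, 4.38 on female 1 and 5.60 on female 2. Bgn, the biglycan gene, was at 9.65, 9.38, 8.94 and 9.74 in the same order. Both had the lowest value on female 1, as did Fmod, the fibromodulin gene, at 7.16 against 7.75 to 8.85 on the other arrays. Most members of their lists were lowest elsewhere. On female 1 it was 4 of 11 matrix partners and 4 of 10 collagen receptors, against 25.1% of all probe sets.

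Among the chains of the same classes that are not described above, Col9a2, a chain of the type IX collagen best known from cartilage, was at 5.01 on male 1, 3.99 on male 2, 4.42 on female 1 and 4.31 on female 2. Its other chains Col9a1 and Col9a3 stayed between 2.08 and 2.66. The cartilage marker Acan, the aggrecan gene, was at 3.29, 2.64, 2.92 and 3.85 in the same order of arrays.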
